A study of Sus scrofa with 3 samples.

Results

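The carnitine shuttle and the mitochondrial beta-oxidation cycle were examined through 10 enzymes and carriers, chosen by gene symbol from their place in the pathway. The rule used no measured value, but the choice was made with earlier results of these data known, so the members' counts are a description. All 10 were found once each among the 34579 features of the liver RNA-Seq tables: CPT1A, SLC25A20 and CPT2 of the carnitine shuttle, the acyl-CoA dehydrogenases ACADL, ACADM and ACADS, the hydratase ECHS1, the hydroxyacyl-CoA dehydrogenase HADH, and HADHA and LCTHIO, the alpha and beta subunits of the mitochondrial trifunctional protein. LCTHIO is the symbol used in the tables for the gene that RefSeq now lists as HADHB. In the RefSeq pig assembly Sscrofa11.1, all 10 members matched a gene, 9 by symbol and LCTHIO by synonym.

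The libraries came from liver of male Chinese Wuzhishan pigs, a miniature breed. The labels give an age of 6 to 7 months, which in the methods is the age at purchase, so the pigs were older by an acclimation period and the time on the diet when the livers were taken. All animals in the 3 groups ate the HFC diet, rich in fat and cholesterol, for 12 weeks. It was a swine feed that contained 15% lard, 10% egg yolk powder, 0.5% sodium cholate and 1.5% cholesterol. IM pigs (IM+HFC) were intact males that had a sham operation, CM pigs (CM+HFC) were surgically castrated, and CMT pigs (CM+HFC+T) were castrated and received testosterone propionate at 10 mg/kg body weight by weekly intramuscular injection in corn oil from the day of castration. An injection of the oil alone into IM or CM pigs is not given in the sources used here, so the hormone and its vehicle cannot be told apart. No group ate the standard diet, so the diet is common to every value reported here. RNA from pigs of a group was mixed in equal amounts and sequenced as 1 library per group. Per the labels a pool held 3 pigs, while the methods name 6 animals in a group, so the number in each pool is not settled. Differences between libraries therefore have no replicate check within the sequencing, and these libraries do not show the variation among pigs. Outside the sequencing, the study measured CPT1A, ACADL and HADH by qRT-PCR with several pigs in each group. It reported all of them as lower in CM pigs and higher in CMT pigs. For CPT1A it reported the same directions for the protein by western blot. Those measurements were not analysed here.

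Fatty acids are burned in liver mitochondria after activation to acyl-CoA. CPT1A, the liver form of carnitine palmitoyltransferase 1, moves long acyl chains onto carnitine at the outer membrane and is the step inhibited by malonyl-CoA. SLC25A20 carries the acylcarnitine across the inner membrane in exchange for carnitine, and CPT2 returns the chain to CoA inside. Each turn of the cycle then oxidizes, hydrates, oxidizes again and cleaves the chain, releasing acetyl-CoA that the liver can send to the citrate cycle or to ketone bodies. Separate enzymes serve long, medium and short chains, and the trifunctional protein carries the last 3 reactions for long chains as a complex of alpha and beta subunits.

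Levels are given as deposited FPKM, fragments per kilobase of transcript scaled by a divisor for each library, which permits comparison between genes. The values rose in whole steps, from which the number of reads behind each could be recovered. The recovered reads summed to 32197628 (IM), 36126730 (CM) and 25419901 (CMT), while the FPKM values summed to 8.6604e+06, 7.2477e+06 and 8.60371e+06. The divisor of CM was thus larger relative to its reads than those of the other libraries. Scaling CM to the recovered reads would raise its values 1.21-fold against IM, so the counts of members and of the main gene lists are also given under other scalings. Intervals in brackets are 95% intervals for counting error only. They do not cover variation among pigs, and they are too narrow if the mates of a read pair were counted separately.

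The members were among the more abundant liver mRNAs in each library. Their median FPKM was 1752 (IM), 1154 (CM) and 1828 (CMT), against a median over all mRNA features of 49.2, 48.8 and 48.5. The members' summed FPKM was 23701 (IM), 15386 (CM) and 25187 (CMT). Between 1502 and 26984 reads stood behind each value, and every member passed the FPKM minimum of 1 that was set for comparisons. ECHS1 alone held 43.1% of the members' summed FPKM in IM, 43.8% in CM and 44.7% in CMT. SLC25A20 had the lowest level of the members in each library, and HADH ranked second in each. The order between them differed among the libraries: ACADL had rank 6 in IM, 8 in CM and 3 in CMT. Most neighbours in the order of levels had intervals that did not overlap. The exceptions were ACADM with ACADS and ACADS with LCTHIO in CM, and LCTHIO with ACADM in CMT.

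**Figure D1:**
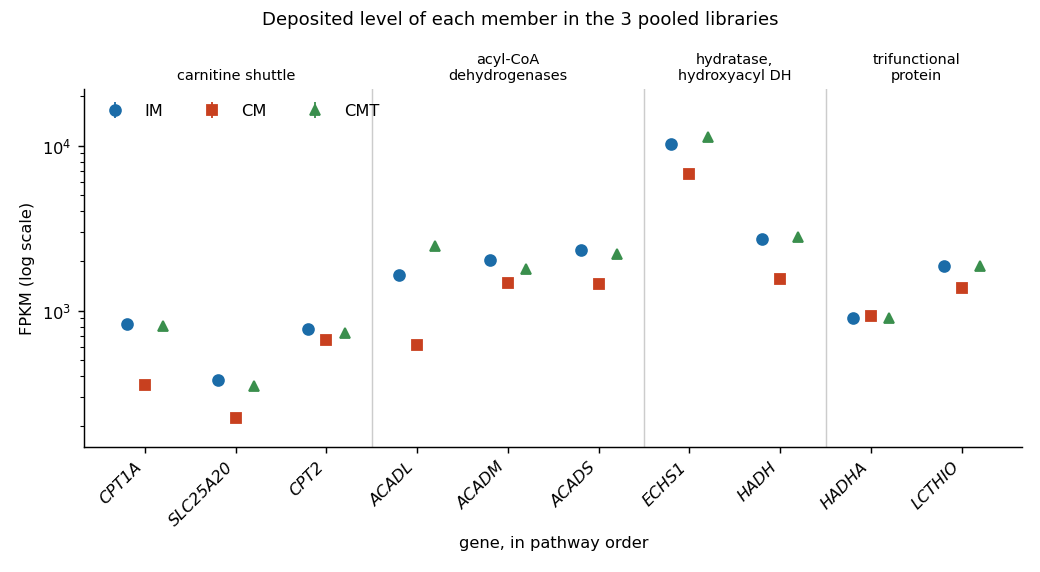
FPKM (log scale) of the 10 members in the pooled libraries IM (circles), CM (squares) and CMT (triangles), in pathway order from left to right, with 95% counting intervals that are mostly smaller than the symbols. CM is the lowest symbol for every member except HADHA, and ECHS1 has the highest level in each library at 10219, 6740 and 11248.

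At the carnitine shuttle, the entry enzyme and the carrier were lower in CM, while the exit enzyme differed little. CPT1A had an FPKM of 831 (IM), 353 (CM) and 812 (CMT). The CM library was 2.36-fold lower than IM (2.27 to 2.45), and CMT was 2.30-fold higher than CM (2.21 to 2.40). SLC25A20 was at 382 (IM), 224 (CM) and 350 (CMT). Its level was 1.70-fold lower in CM than in IM (1.59 to 1.82) and 1.56-fold higher in CMT than in CM (1.45 to 1.67), an interval that includes 1.5. CPT2, on the matrix side, stood at 774 (IM), 668 (CM) and 732 (CMT). It was 1.16-fold lower in CM than in IM (log2 ratio -0.26 to -0.16) and 1.10-fold higher in CMT than in CM (1.06 to 1.14), both short of the 1.5-fold criterion. The direction of the CPT2 difference depended on scaling: under 3 of 6 other scalings of the libraries CM was the higher of the pair, in both comparisons.

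The 3 acyl-CoA dehydrogenases catalyse the same first oxidation on chains of different length, and they differed by unlike amounts. ACADL, the long-chain enzyme, had FPKM values of 1646 (IM), 619 (CM) and 2479 (CMT). Its level in CM was 2.66-fold below IM (2.55 to 2.77), and CMT was 4.0-fold above CM (3.85 to 4.16). These were the largest ratios among the members in both comparisons. ACADM, the medium-chain enzyme, was at 2034 (IM), 1463 (CM) and 1783 (CMT). The ratios were smaller, at 1.39-fold lower in CM than in IM (1.33 to 1.45) and 1.22-fold higher in CMT than in CM (1.17 to 1.28). ACADS, the short-chain enzyme, measured 2324 (IM), 1446 (CM) and 2206 (CMT). It lay between the other dehydrogenases, 1.61-fold lower in CM (1.56 to 1.65) and 1.53-fold higher in CMT than in CM (1.48 to 1.57).

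ECHS1 and HADH, which hydrate and re-oxidize short and medium chains in the matrix, were both lower in CM. ECHS1 had an FPKM of 10219 (IM), 6740 (CM) and 11248 (CMT). CM was 1.52-fold lower than IM (1.49 to 1.54), just past the criterion and with an interval that reaches below it, and CMT was 1.67-fold higher than CM (1.64 to 1.70). HADH was at 2727 (IM), 1564 (CM) and 2803 (CMT). For HADH the CM library was 1.74-fold lower than IM (1.70 to 1.79), and CMT was 1.79-fold higher than CM (1.74 to 1.84).

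Neither subunit of the trifunctional protein reached 1.5-fold in any comparison, and the subunits differed from each other. HADHA, its alpha subunit with hydratase and dehydrogenase activity, had an FPKM of 906 (IM), 933 (CM) and 900.1 (CMT). All libraries lay close together, and both intervals included a ratio of 1 (log2 of 0): the CM to IM ratio was 1.03 (0.983 to 1.08) and the CMT to CM ratio 0.965 (log2 -0.12 to 0.02). Under the 6 other scalings HADHA was higher in CM than in IM by log2 0.06 to 0.39. LCTHIO, the beta subunit with thiolase activity, was at 1858 (IM), 1376 (CM) and 1873 (CMT). It was 1.35-fold lower in CM than in IM (1.28 to 1.42) and 1.36-fold higher in CMT than in CM (1.29 to 1.43). The subunit genes lie next to each other on the same chromosome in Sscrofa11.1, with 0 protein-coding genes between them.

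Compared with IM, the CM library was 1.5-fold or more lower for 6 of the 10 members (CPT1A, SLC25A20, ACADL, ACADS, ECHS1 and HADH) and higher by that margin for 0. This count rested on the deposited scaling: it was 5 under 3 of 6 other scalings and 2 under the other 3, with CPT1A and ACADL past 1.5-fold in each. Of all 15613 mRNA features that reached an FPKM of 1 in every library, 12.1% were lower and 11.1% higher by that margin. Among the 2712 mRNA features that reached 200 throughout, a level that every member exceeded, 13.9% were lower. The lower limit of the fold was above 1.5 for 5 of the 6, the exception being ECHS1. The interval did not include a ratio of 1 for 9 members, the exception being HADHA, and the same held for 49% of the mRNA features with recovered reads. The members' median log2 ratio was -0.64, with a range from -1.41 for ACADL to 0.04 for HADHA. The median was -0.02 over all mRNA features tested and -0.12 over those that reached 200. In pooled tissue RNA, a smaller share of hepatocytes and less of these mRNAs in each hepatocyte cannot be told apart.

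Between CMT and CM, the same 6 members were at least 1.5-fold higher in CMT, and 0 were lower by that margin. Under the 6 other scalings this count ran from 2 to 6, and it was 4 or less under 4 of them. Of the mRNA features tested, 12.1% were higher and 13.5% lower in CMT by 1.5-fold, and 17.1% were higher among those that reached an FPKM of 200. For 4 of the 6, CPT1A, ACADL, ECHS1 and HADH, the lower limit of the fold was above 1.5. The interval did not include a ratio of 1 for 9 members, nor did it for 48.9% of the mRNA features with recovered reads. The members' median log2 ratio was 0.63, against 0.01 over all mRNA features tested and 0.18 over those that reached 200. Because this comparison uses the same CM library as the comparison with IM, a high or low value in CM moves both, and the ratios are given side by side without being counted as separate evidence. CM was at least 1.5-fold below both other libraries for 6 of 10 members, against 7.12% of the mRNA features tested and 10.8% of those that reached an FPKM of 200. Under the other scalings 2 to 5 members were below both by that margin. It was the lowest library by any margin for 9 of 10, against 38.7% and 57.8%.

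**Figure D2:**
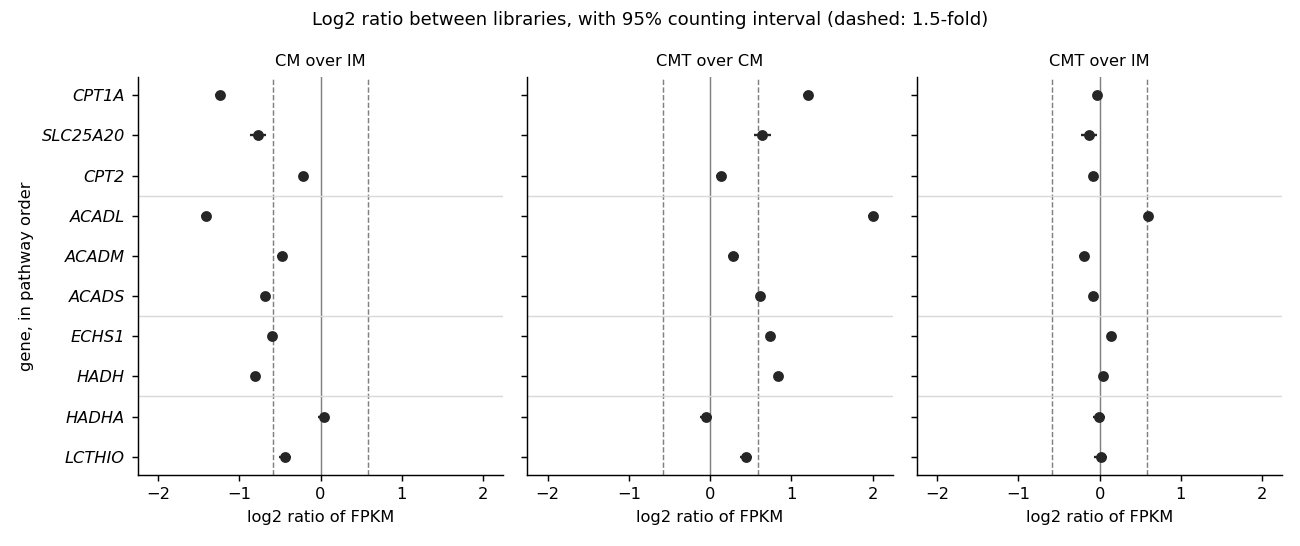
Log2 ratios of FPKM for each member between CM and IM, CMT and CM, and CMT and IM, with horizontal 95% counting intervals, a solid line at no difference and dashed lines at 1.5-fold. In the first 2 panels CPT1A and ACADL lie farthest from 0 while CPT2, ACADM, HADHA and LCTHIO stay between the dashed lines, and in the last panel ACADL alone reaches a dashed line, at 0.59.

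In CMT the members were near their IM levels, with ACADL as the exception. ACADL was 1.51-fold higher in CMT than in IM (1.46 to 1.55) and was the only member of the 10 past 1.5-fold, an amount just over the criterion with an interval on both sides of it. Among all mRNA features tested, 16.8% differed by 1.5-fold in either direction and 6.67% were higher in CMT. The share in either direction was 6.38% among those that reached an FPKM of 200. The median log2 ratio of the members was -0.02, against -0.01 over all mRNA features tested. The interval of the CMT to IM ratio did not include 1 for 7 members and for 37.1% of the mRNA features with recovered reads. If both mates of each pair had been counted, so that the reads were halved, 4 members would remain: ACADL, ACADM, ACADS and ECHS1. ACADM was 1.14-fold lower in CMT than in IM (1.09 to 1.19), and ECHS1 was 1.10-fold higher (1.08 to 1.12). CPT1A (log2 -0.03, -0.08 to 0.02), HADHA (-0.01, -0.09 to 0.07) and LCTHIO (0.01, -0.06 to 0.09) had intervals that included a log2 ratio of 0.

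Ratios between members inside a library do not depend on how libraries are scaled. The pairs were picked by hand, and most have CPT2, ACADM or HADHA below the line, members short of 1.5-fold in these data. A low ratio in CM thus follows in part from that choice, and the ratios describe only the pairs given. CPT1A stood at 1.07 times CPT2 in IM (95% interval 1.04 to 1.11), 0.528 in CM (0.508 to 0.549) and 1.11 in CMT (1.07 to 1.15). The entry enzyme was thus above the exit enzyme of the shuttle in IM and CMT and below it in CM. SLC25A20 was 0.494 times CPT2 in IM, 0.336 times in CM and 0.478 times in CMT, and the CM interval (0.318 to 0.355) lay below those of the other libraries.

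Among the dehydrogenases, ACADL was 0.809 times ACADM in IM (0.779 to 0.840), 0.423 times in CM (0.405 to 0.442) and 1.39 times in CMT (1.34 to 1.45). The long-chain enzyme mRNA was therefore below the medium-chain one in IM and CM and above it in CMT. ACADS to ACADM varied less, at 1.14 (IM), 0.988 (CM) and 1.24 (CMT). LCTHIO to HADHA was 2.05 in IM (95% interval 1.95 to 2.16), 1.47 in CM (1.41 to 1.54) and 2.08 in CMT (1.97 to 2.20), so the beta subunit was lower relative to the alpha subunit in CM. HADH to HADHA was 3.01, 1.68 and 3.11 in the same order. ECHS1 to HADH, at 3.75 (IM), 4.31 (CM) and 4.01 (CMT), was the only pair of those given here that was highest in CM. CPT1A to HADHA, the shuttle entry against a later step, was 0.917 (IM), 0.378 (CM) and 0.902 (CMT), and ACADL to HADHA was 1.82, 0.663 and 2.75.

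**Figure D3:**
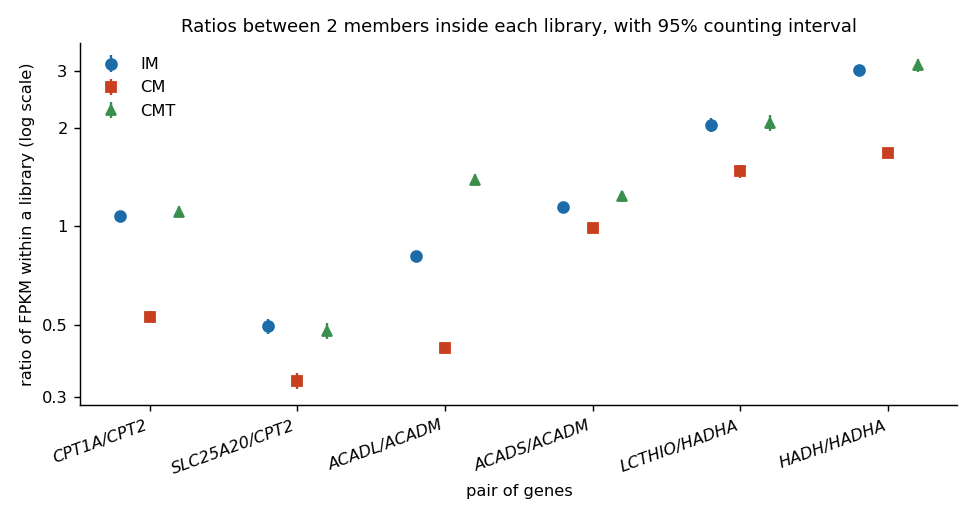
Ratio of FPKM (log scale) between 2 members inside each library for 6 pairs, with 95% counting intervals, for IM (circles), CM (squares) and CMT (triangles). CM has the lowest ratio in each pair shown, from 0.336 for SLC25A20 over CPT2 to 1.68 for HADH over HADHA. ACADL over ACADM is the pair with the widest gap between CMT (1.39) and IM (0.809). The pairs were picked by hand, and ECHS1 over HADH, which was highest in CM, is not shown.

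How far the members were below the other libraries in CM depended on the scaling of the CM library, which the ratios inside a library avoid. CPT1A and ACADL were past 1.5-fold in both comparisons under all 6 other scalings, with CM 1.85- to 2.33-fold below IM for CPT1A and 2.09- to 2.63-fold below IM for ACADL. ECHS1 was below 1.5-fold under all 6 in the comparison of CM with IM, at a log2 ratio of -0.58 to -0.25. SLC25A20, ACADS and HADH passed 1.5-fold there under 3 of the 6. In the comparison of CMT with CM, HADH passed under 5 of the 6, ECHS1 under 3, and SLC25A20 and ACADS under 2. ACADM was at a log2 ratio of 0.28 or less there and fell just below 0 under 1 of the 6. When the libraries were scaled to equal FPKM sums, to the recovered reads or to the hepatocyte markers, 2 of 10 members were below IM by 1.5-fold in CM, against 6.87%, 6.42% and 5.54% of the mRNA features. Under the same scalings the share of mRNA features at least 1.5-fold higher in CM went from 11.1% as deposited to 20.7%, 22% and 26.4%. These scalings moved every CM to IM ratio up by log2 0.26, 0.28 and 0.35. Scaled to 9 reference genes such as GAPDH and HPRT1, or to the median ratio of mRNA features, 5 members were below IM by 1.5-fold in CM.

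**Figure D4:**
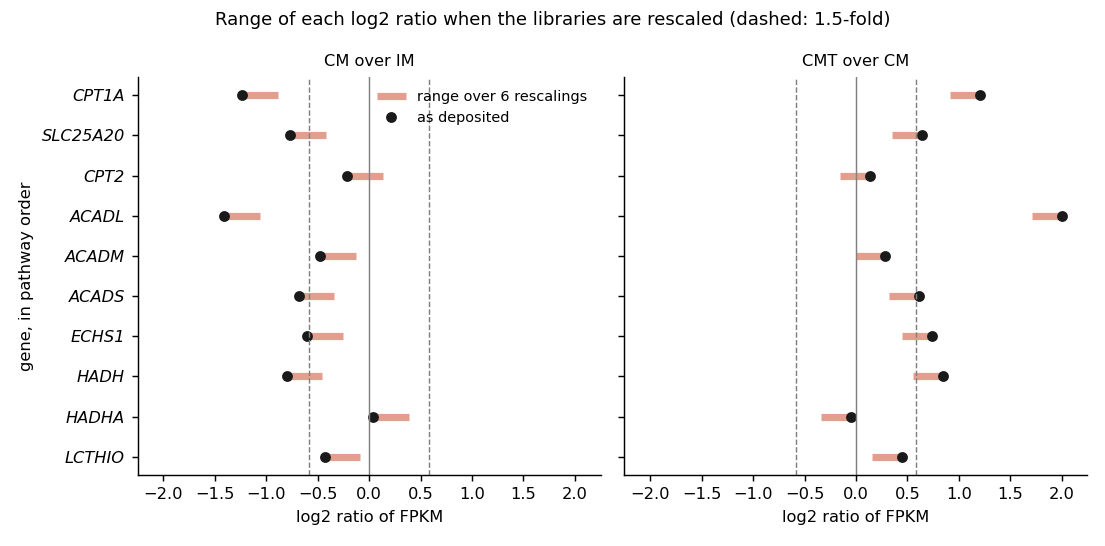
Log2 ratio of FPKM as deposited (points) and its range over 6 other scalings of the libraries (bars) for each member, for CM over IM and CMT over CM, with a solid line at no difference and dashed lines at 1.5-fold. The bars of CPT1A and ACADL stay beyond the dashed lines in both panels, the bar of CPT2 crosses 0 in both, and HADHA is the only member whose bar lies wholly above 0 for CM over IM.

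The tissue label was checked against cell type markers. Hepatocyte genes dominated every library, with ALB, serum albumin, at an FPKM of 690375 (IM), 476360 (CM) and 445509 (CMT), and 4 skeletal and heart muscle genes (ACTA1, MYH7, CKM and TNNT3) summed to less than 1 in each. Of 10 hepatocyte markers listed, 9 were found. In CM 8 of the 9 were lower than in IM, 1 of them by 1.5-fold, against 12.1% of the mRNA features tested. Their median log2 ratio was -0.35 for CM to IM and 0.29 for CMT to CM, but the markers differed among themselves. FGB, a fibrinogen chain, was lowest in CM, with log2 ratios of -1.14 and 1.67 in these comparisons. ALB was at -0.54 and -0.10, CPS1 at -0.02 and -0.19, and TF at 0.03 and 0.06.

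Markers of other liver cells also moved between the libraries. The summed FPKM of 9 lymphocyte markers, of 10 listed, was 440 (IM), 598 (CM) and 342 (CMT). All 9 were higher in CM than in IM, none of them by 1.5-fold. In CMT, 5 of the 9 were below CM by 1.5-fold or more, against 13.5% of the mRNA features tested. Macrophage markers, 6 of 7 found, summed to 10131, 7395 and 9264, with CD5L the largest at 5504, 3902 and 5181. All 6 were lower in CM than in IM, by unlike amounts, and 2 of them were lower again in CMT. The scavenger receptor MARCO differed most, at 414 (IM), 82.8 (CM) and 317 (CMT). The 2 without a rise in CMT were CD14, at 2374, 2090 and 1945, and CSF1R, at 161, 150 and 149. Stellate cell and fibroblast markers (7 of 7) summed to 1541, 1618 and 1356, endothelial markers (5 of 6) to 1079, 954 and 1004, and the cholangiocyte markers EPCAM and SOX9 (2 of 4) to 40.0, 68.9 and 45.7. None of the defining markers of these cells that were found was at 0, and the muscle gene TNNT3 was at 0 in every library. Whether the makeup of the tissue had a part in the members' ratios was not tested.

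Other genes that feed or complete mitochondrial oxidation were taken from a list of 36 symbols, of which 31 were found and 30 passed the FPKM minimum. Of these 30, 11 were below IM in CM by 1.5-fold or more and 1 was above, against 12.1% and 11.1% of the mRNA features tested. In CMT, 16 were above CM by that margin and 2 were below, against 12.1% and 13.5%. The median log2 ratios of the 30 genes were -0.36 and 0.63, against the members' -0.64 and 0.63. Under the 6 other scalings the number below IM in CM ran from 4 to 11 and the number above CM in CMT from 9 to 16. ACADVL, the very-long-chain acyl-CoA dehydrogenase of the inner membrane, was not analysed here, nor were ACAD10, MLYCD and ACOT2. The 36 symbols also held HADHB, the RefSeq name of the member LCTHIO, which was not counted among the 31. The other forms of the entry enzyme, chosen after their values were seen, were expressed at far lower levels than CPT1A. CPT1B, the muscle form, was at 14.0 (IM), 15.2 (CM) and 12.5 (CMT), and CPT1C at 13.9, 12.6 and 13.5.

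Most of the enzymes that take electrons from the cycle or prepare unsaturated chains were lower in CM as well. ETFA and ETFDH, which pass electrons from the acyl-CoA dehydrogenases to the respiratory chain, were lower in CM than in IM by log2 ratios of -0.71 and -0.70, and ETFB was at -0.50. ECI1 and DECR1, which handle double bonds, were at -0.96 and -0.78, while the related isomerase ECI2 was at 0.12. ACACA and ACACB, the acetyl-CoA carboxylases that make malonyl-CoA, had log2 ratios of -1.28 and -2.62. ACACB was at a low level, with an FPKM of 15.3 (IM), 2.50 (CM) and 13.4 (CMT). Of 4 acyl-CoA synthetases, which activate fatty acids, 0 were 1.5-fold lower in CM than IM and 3 were 1.5-fold higher in CMT than CM. Each of these calls held for 12.1% of the mRNA features tested. ACSL3 was at 429, 299 and 738 in IM, CM and CMT. MUT and PCCA, which process the propionyl-CoA left by odd chains, were at log2 ratios of -0.76 and -0.61 for CM to IM. In the same group PCCB was at -0.43 and MCEE at 0.09. The acyl-CoA thioesterase ACOT13 was at -0.77 with 1.69 for CMT to CM. ACOT9, the other thioesterase found, was higher in CM, at a log2 ratio of 0.54 for CM to IM and a lower level. When the libraries were scaled to the recovered reads, ETFA, ETFDH, DECR1, MUT, PCCA and ACOT13 were within 1.5-fold between CM and IM, while ECI1, ACACA and ACACB were still past it.

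CROT, the carnitine octanoyltransferase of peroxisomes, had the widest difference in the carnitine group, with an FPKM of 2805 (IM), 315 (CM) and 4099 (CMT). The CM library was 8.90-fold lower than IM for CROT (8.58 to 9.23), and the other 7 genes that make, carry or transfer carnitine were within 1.5-fold between CM and IM. ACAA2, the mitochondrial thiolase that ends the cycle for medium and short chains, went the other way. Its FPKM was 1004 (IM), 2982 (CM) and 99.4 (CMT), so CM was 2.97-fold higher than IM (2.81 to 3.15) and CMT was 30.0-fold lower than CM (25.1 to 36.2), with 121 reads behind the CMT value. The thiolase subunit LCTHIO was at 1858, 1376 and 1873 in the same libraries. CM at least 1.5-fold above IM, with CMT at least 1.5-fold below both, held for 1.42% of the mRNA features tested. This pattern was taken from the values of ACAA2 itself, so the share is a description only.

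Peroxisomes shorten fatty acids by a parallel pathway, and the citrate cycle oxidizes the acetyl-CoA released. Of 12 peroxisomal beta-oxidation genes that passed the minimum, 5 were below IM in CM by 1.5-fold or more and 7 were above CM in CMT. Each of these calls held for 12.1% of the mRNA features tested. Among the 5 were AMACR and HSD17B4, at log2 ratios of -1.80 and -1.59. Under the 6 other scalings 3 to 5 were below IM in CM and 2 to 7 above CM in CMT. Of 17 citrate cycle genes, 2 were below IM in CM by that margin (SUCLG1 at -0.81 and MDH2 at -0.59), with a median log2 ratio of -0.30. This count was near the 12.1% of all mRNA features tested. Under the other scalings 0 or 1 of the citrate cycle genes passed.

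**Figure D5:**
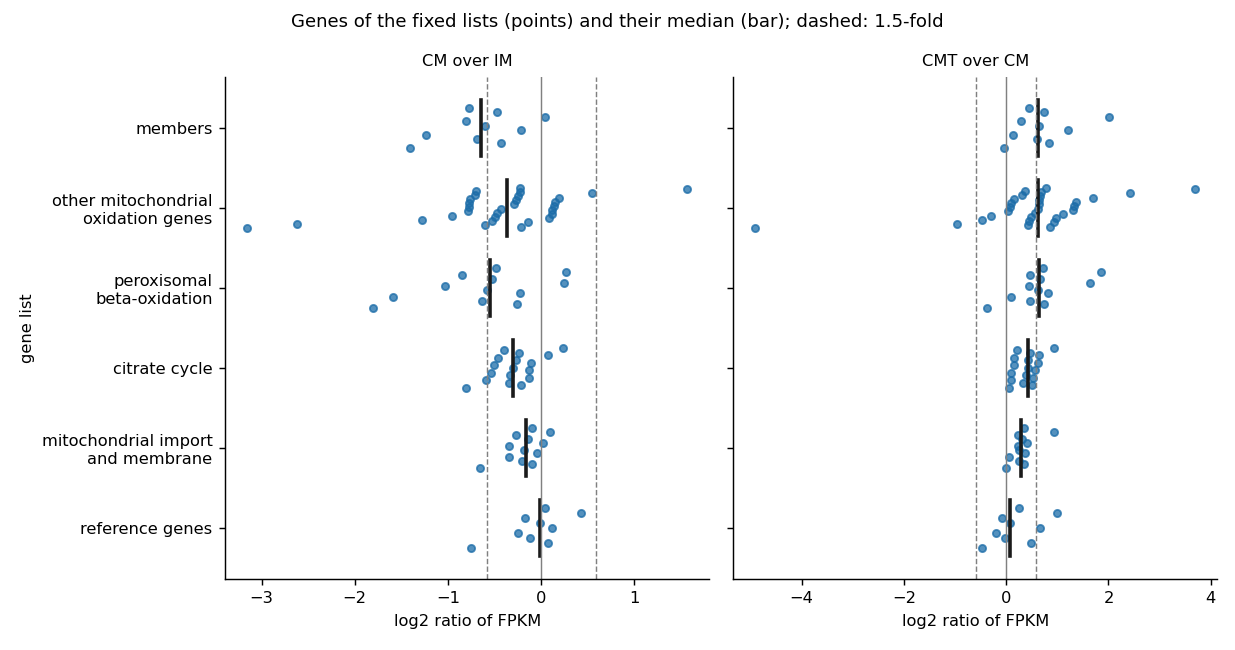
Log2 ratio of FPKM of each gene (points) and the median (bars) for the members, other mitochondrial oxidation genes, peroxisomal beta-oxidation, citrate cycle, mitochondrial import and membrane, and reference genes, for CM over IM and CMT over CM, with dashed lines at 1.5-fold. The medians run from -0.64 for the members to -0.02 for the reference genes in the first panel, and ACAA2 is the point far on the opposite side from its group in both panels.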

How the data were processed

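Liver RNA was pooled within each group and sequenced as 1 paired-end library per group. Per the submitters' processing notes the authors used FastQC and TopHat, and per the methods they mapped the reads to Sscrofa 10.2. The program that counted reads, its handling of reads that map to several places and of strand, and the annotation version are not given in the sources used here. The authors deposited FPKM values per feature. HADHA and LCTHIO are adjacent, and reads shared with pseudogenes of any member could not be examined.

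FPKM were whole multiples of a step for each gene and library, and divisors of 2.51 (IM), 3.42 (CM) and 2.04 (CMT) reads per kilobase at an FPKM of 1 gave the reads for 23090 of 24277 features above 0 (95.1%), with lengths up to 10000 bases. Of the lengths that fit a gene, the smallest was used. Its reads may therefore be too low by a shared factor, which would make the interval too wide. Intervals of ratios are 95% exact binomial (Clopper-Pearson) limits on the reads of 2 libraries, or of 2 genes inside a library. Intervals of single levels are 95% exact Poisson limits on the reads of 1 library. Neither covers error in gene length or mapping. The recovery was tested on simulated data. No p-value was computed, since each group has 1 library.

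A difference was counted for mRNA features that reached an FPKM of 1 in each of the 3 libraries and a 1.5-fold ratio, without rescaling or a pseudocount. The fold and FPKM thresholds are those of the study, which also required a false discovery rate that was not applied here. The members and gene lists were chosen with earlier results of these data known. Named genes were all members, up to 4 genes per list with the largest absolute log2 ratio of CM to IM, and the 5 genes nearest to CPT1A, ACADL and HADHA by their pair of log2 ratios. Some genes that this rule names are not reported here. Alternatives were 6 scalings, a 2-fold threshold, an FPKM minimum of 10, a pseudocount of 1, and halved reads. The background at an FPKM of at least 200 and the counts of other lists under each scaling were added after seeing the data. The pattern counted for ACAA2 was taken from its own values. Coordinates are not printed, because the RefSeq table (Sscrofa11.1) is of another build than the files. Scripts ran in Python 3.11.15 (scipy 1.17.1, pandas 2.3.3, numpy 2.4.6, matplotlib 3.10.9).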

Additional observations from a re-analysis of the deposited data

How the results depend on the processing

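No paired analysis was possible because each group has 1 library, and leaving out a replicate was not possible for the same reason. Raising the FPKM minimum to 10, dropping it or adding a pseudocount of 1 left the counts of members as reported. So did a call that also required the interval not to include 1. These settings had almost no room to move a count, because the lowest member value was 224 and each had at least 1502 reads. No member past 1.5-fold changed direction under any scaling. Scalings and the threshold moved the counts of members lower in CM than in IM, higher in CMT than in CM, different between CMT and IM, and lowest in CM by 1.5-fold against both, which were 6, 6, 1 and 6 as deposited. Scaled to the upper quartile they were 5, 4, 0 and 3, and the median log2 ratio of CMT to CM was 0.55. Scaled to equal FPKM sums they were 2, 3, 1 and 2, with medians of -0.39 for CM to IM and 0.38 for CMT to CM. Scaled to the recovered reads they were 2, 3, 1 and 2, with medians of -0.36 and 0.39. Scaled to the hepatocyte markers they were 2, 2, 1 and 2, with medians of -0.30 and 0.34, and 0.037 for CMT to IM. At a 2-fold threshold they were 2, 2, 0 and 2. The members past 2-fold in both comparisons were CPT1A and ACADL. Which scaling comes closest to the amount of RNA per cell was not tested. Counting error was small at 1502 reads or more per member, and the lack of replicate libraries limits every comparison between libraries.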

Other observations

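Regulators of fatty acid oxidation were measured alongside the enzymes. Of 8 found among 11 listed, 2 were below IM in CM by 1.5-fold or more and 1 was above. These calls held for 12.1% and 11.1% of the mRNA features tested. In CMT, 4 of the 8 were above CM by that margin and 1 was below, against 12.1% and 13.5%. Under the 6 other scalings 1 or 2 of the regulators were below IM in CM, and 1 to 4 were above CM in CMT. PPARD, a nuclear receptor for fatty acids, had an FPKM of 187 (IM), 86.0 (CM) and 155 (CMT), and CREB3L3, a liver transcription factor active in fasting, was at 2838, 1682 and 3300 (log2 ratios of -0.76 for CM to IM and 0.97 for CMT to CM). Scaled to the recovered reads, CREB3L3 was within 1.5-fold between CM and IM. ESRRA was at log2 ratios of -0.57 for CM to IM and 0.87 for CMT to CM. PPARGC1B was higher in CM, at 7.94 against 4.42 in IM and 4.66 in CMT. Its level was the lowest of the regulators found, and its reads could not be recovered, so it has no counting interval. PPARA, the main receptor behind many of these genes, was outside the naming rule and was picked after its values were seen. It was at 318, 264 and 271, a log2 ratio of -0.27 for CM to IM and 0.04 for CMT to CM.

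Genes of the mitochondrion outside fatty acid oxidation were also counted. Of 12 genes of mitochondrial import and membrane organization, 1 was below IM in CM by 1.5-fold or more, against 12.1% of the mRNA features tested. It was the prohibitin PHB2 at a log2 ratio of -0.65 (0 or 1 gene passed under the 6 other scalings). The median of the 12 genes was -0.16, against -0.64 for the members and -0.02 for all mRNA features tested. For CMT to CM the median was 0.28, and PHB2 was at 0.92. Of 9 reference genes, HPRT1 was at -0.75 and 0.997 for the same comparisons, so a single reference gene would scale these libraries differently from their median of -0.02.

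Among 12126 mRNA features that reached an FPKM of 10 in every library, 12 lay within a distance of 0.1 of CPT1A when the log2 ratios CM to IM and CMT to CM were taken as coordinates. With these log2 distances, the nearest were FRY at 0.017, LOC100155367 at 0.038, LOC102164747 at 0.055, CCL4 at 0.062 and CELSR2 at 0.066. ACADL had 1 such neighbour, TTC23L at 0.098, followed by CMBL at 0.17, PROCR at 0.21, HSPB2 at 0.22 and ITPKA at 0.22. HADHA, near no difference, had 710, led by LOC100621774, TBC1D4, LOC100514512, ARHGAP12 and TARBP1. With 3 libraries, likeness on 2 ratios says nothing of shared control.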
